A study of Mus musculus with 8 samples.

Results

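Aminoacyl-tRNA synthetases join each amino acid to its matching tRNA and so supply the ribosome with charged tRNA. The genes described here are 36 named members of this family, taken by symbol from a deposited table of 32499 genes. Symbols that end in 2 were taken as the 16 mitochondrial enzymes and the others as the 20 cytosolic ones, with Gars and Kars, whose products serve both compartments, counted as cytosolic. All 36 were in the table, and all were among the 12970 genes that passed the filter on low counts. The smallest count of a member in any library was 42, for Wars2.

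The cytosol and the mitochondrion translate with separate synthetases, and the nucleus encodes both sets. Several cytosolic enzymes are held together in the multisynthetase complex by the scaffold proteins Aimp1, Aimp2 and Eef1e1. When amino acids run short, translation of the transcription factor ATF4 rises, and ATF4 induces many cytosolic synthetase genes along with genes of amino acid synthesis and uptake, a programme called the integrated stress response. Fusions of ZNF384, a zinc finger protein, with partners such as TCF3 and TAF15 occur in human B cell acute lymphoblastic leukaemia.

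The cells were pre-B cells of C57BL/6 mice without the tumour suppressor gene Arf (Arf-/-), so the EV controls lack it too. The groups were cells with lentiviral HA-tagged TCF3-ZNF384, cells with HA-tagged TAF15-ZNF384, cells with HA-tagged full-length wild-type ZNF384, and cells with the empty vector (EV). Each group had 2 libraries, which the series describes as biological replicates, made from total RNA of cells sorted for GFP with a stranded kit. The proteins come from a lentivirus and not from a rearranged locus, and whether the replicates are separate transductions is not given. The values are deposited raw counts, given below as counts per 1000000 (CPM) on libraries scaled by the trimmed mean of M values (TMM).

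Library totals ran from 9381954 to 41483660 counts. The share taken by 5 abundant non-coding genes was 18.53 and 24.45% with TCF3-ZNF384, 28.1 and 29.64% with TAF15-ZNF384, 10.92 and 12.51% with ZNF384, and 27.22 and 33.23% with EV, and its part in the results was not tested beyond the scalings given. All 11 B lineage markers had counts, and their sums were 4430 to 4480, 4610 to 4660, 4490 to 4850 and 4290 to 4490 CPM in the same order of groups. Single markers moved within those sums. At an adjusted p under 0.05, 5 of the 11 were higher and 2 lower with TCF3-ZNF384 than with EV. Of all tested genes 16.2% were higher and 17.0% lower. The recombinase gene Rag1 had 67.6 and 55.1, 6.63 and 9.31, 0.138 and 0.218, and 0.547 and 0.202 CPM in that order, and Rag2 was at 0.156 and 0.0403 CPM with EV. The part of these markers in the results was not tested. Myeloid markers summed to 1.29 to 1.62 CPM with TCF3-ZNF384 and to at most 0.544 CPM elsewhere, with S100a8 and S100a9 at 0 counts. Sums of T and NK markers were 25.9 to 26.8, 19.7 to 21.7, 21.2 to 25.4 and 19 to 20.7 CPM, mostly Lck, with Cd8a at 0, and sums of erythroid and megakaryocyte markers were 5.01 to 5.34, 5.39 to 6.74, 3.54 to 3.74 and 4.03 to 4.76 CPM, with Ppbp at 0. Stromal and endothelial markers, nearly all Pecam1, were higher with the fusions (52.6 to 58.1 and 48.6 to 50.9 CPM) than with ZNF384 (28 to 32.8 CPM) or EV (27.9 to 30.6 CPM), and their part in the results was not tested. The deposited names of the 6 construct libraries end in Rep2b (replicate 2 of each construct) or Rep3b (replicate 1). The 2 EV names have neither. The sources do not explain these suffixes, so a difference of a construct from EV cannot be told apart from whatever they mark. The comparisons of a fusion with ZNF384 lie within the 6 libraries that carry them, and each of these groups has both.

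In the EV cells the cytosolic genes stood at a median of 35 CPM per kb of exon and the mitochondrial genes at 7.28 CPM per kb. Gars, for glycyl-tRNA synthetase, had the highest level per length, at 357 ± 16.4 CPM per kb (mean ± SD, n = 2, as throughout), followed by the aspartyl enzyme gene Dars at 234 ± 11.5. The bifunctional glutamyl-prolyl gene Eprs (109 ± 4.23) and the arginyl gene Rars (105 ± 8.88) came next and did not differ beyond their spread. Mars2, for the mitochondrial methionyl enzyme, was the highest of its class at 72.6 ± 2.93 CPM per kb. Kars, the lysyl gene, ranked 23 of 36 at 10.4 ± 0.325, and the lowest cytosolic genes were the tryptophanyl Wars (2.96 ± 0.048) and the glutaminyl Qars (2.92 ± 0.00901), which did not differ beyond their spread. Wars2 was lowest of all at 1.05 ± 0.00541 CPM per kb.

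**Figure D1:**
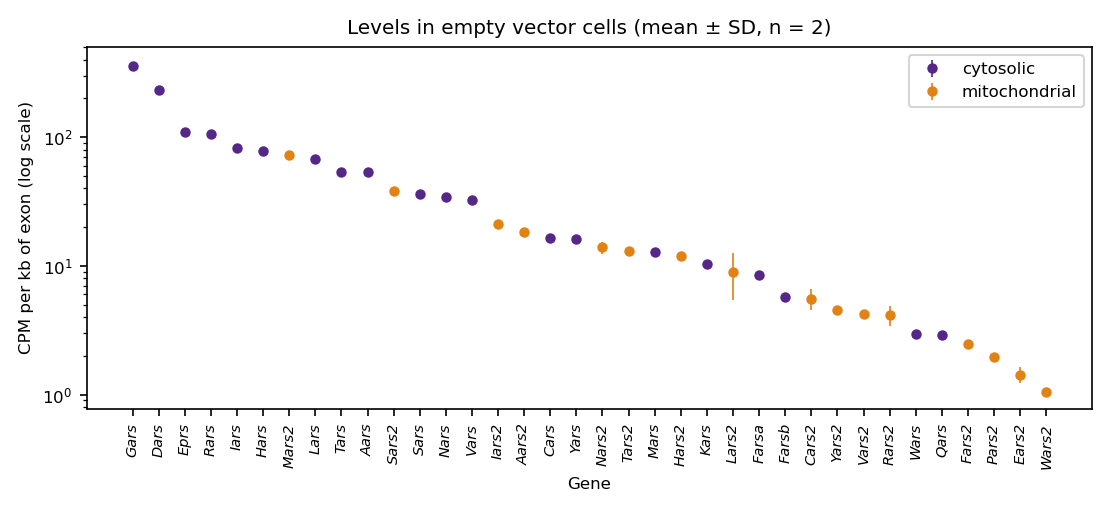
Level of each of the 36 synthetase genes in EV cells in CPM per kb of exon on a log axis, as mean ± SD of 2 libraries, with cytosolic and mitochondrial enzymes in separate colours. Gars (357 CPM per kb) and Dars (234 CPM per kb) stand above the rest, and most mitochondrial genes lie in the lower part.

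Because many of the cytosolic genes moved together, promoter sequence was searched for the letters TGATGNAA on both strands, the CARE element bound by ATF4 with C/EBP proteins. RefSeq promoter windows of the GRCm38.p6 build, from 250 bases before to 50 after each start, were given for 26 of the 36 members. A match was found in 5 of 12 cytosolic genes with a window (Aars, Gars, Iars, Tars and Yars) and in 0 of 14 mitochondrial genes, against 1304 of 32851 windows of all genes (3.97%). The strict form TGATGCAA, which is a subset of the first, was in 4 of the 5 (not in Gars) and in 294 of all windows (0.895%). The stretches from 120 bases before to 20 after the start are printed below in the direction of transcription because these 5 genes were lower with all 3 constructs than with EV. Capitals mark the match on either strand. Sars, which was also lower with all 3 constructs, and Dars, which was lower with the fusions, have no match in their windows and are printed for contrast.
Aars, chr8:111033722-111033861, plus strand: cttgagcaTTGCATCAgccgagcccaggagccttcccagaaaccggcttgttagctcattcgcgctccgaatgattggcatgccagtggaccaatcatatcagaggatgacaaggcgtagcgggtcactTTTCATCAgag
Gars, chr6:55037881-55038020, plus strand: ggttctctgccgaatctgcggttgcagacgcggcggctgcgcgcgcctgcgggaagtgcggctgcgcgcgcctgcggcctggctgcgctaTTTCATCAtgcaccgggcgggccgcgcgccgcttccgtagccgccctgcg
Iars, chr13:49682010-49682149, plus strand: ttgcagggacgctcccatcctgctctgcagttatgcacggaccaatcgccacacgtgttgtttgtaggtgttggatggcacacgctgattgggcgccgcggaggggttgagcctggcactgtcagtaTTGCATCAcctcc
Tars, chr15:11399639-11399778, minus strand: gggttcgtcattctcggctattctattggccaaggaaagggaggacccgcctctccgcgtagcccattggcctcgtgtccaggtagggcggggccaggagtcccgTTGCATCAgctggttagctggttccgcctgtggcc
Yars, chr4:129189783-129189922, plus strand: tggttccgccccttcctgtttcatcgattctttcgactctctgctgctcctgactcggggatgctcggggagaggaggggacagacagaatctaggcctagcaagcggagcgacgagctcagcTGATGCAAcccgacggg
Dars, chr1:128417397-128417536, minus strand: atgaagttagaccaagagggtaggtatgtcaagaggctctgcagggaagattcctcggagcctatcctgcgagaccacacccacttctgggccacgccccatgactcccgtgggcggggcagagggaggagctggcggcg
Sars, chr3:108445240-108445379, minus strand: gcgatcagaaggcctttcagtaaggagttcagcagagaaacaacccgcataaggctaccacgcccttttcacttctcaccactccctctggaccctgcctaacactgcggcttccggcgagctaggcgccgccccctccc
A match is a description of these letters and not evidence of a bound site.

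With TCF3-ZNF384 the cytosolic synthetase genes were lower as a group than with EV. Of the 20 genes 15 fell and 1 rose at an adjusted p under 0.05 by edgeR's quasi-likelihood test, against 17.0% of all tested genes that fell and 16.2% that rose in this comparison (33.3% either way). The median log2 fold change was −0.67 for the cytosolic genes and 0.01 for all genes. Of the 16 mitochondrial genes 4 fell and 1 rose, with a median of −0.10 that changed sign to 0.05 when libraries were scaled by their total without the 5 non-coding genes. Summed over the 20 cytosolic genes, expression was 2888 and 2832 CPM in the TCF3-ZNF384 libraries, against 4898 and 4634 CPM in the EV libraries, and the groups did not overlap. The mitochondrial sums were 641.4 and 644 CPM with TCF3-ZNF384, against 828.8 and 812.4 CPM with EV. Within these sums the single gene Mars2 was at 105 and 112 CPM, against 215 and 203 CPM with EV. Counts here and below are of bulk RNA, in which fewer cells of a type and less RNA per cell cannot be told apart. With that scaling the median of all genes moved up by 0.14, and the cytosolic median became −0.53 with 13 genes lower.

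With TAF15-ZNF384 the same class was lower and nothing in the family rose. Of the 20 cytosolic genes 12 fell, against 6.01% of all tested genes that fell and 5.01% that rose (11.0% either way), and the median log2 fold change was −0.48 against 0.01 for all genes. Of the 16 mitochondrial genes only Nars2 fell, and the median was −0.12, or −0.004 with total-count scaling. The cytosolic sums were 3173 and 3194 CPM with TAF15-ZNF384, below the 4898 and 4634 CPM of the EV libraries. The mitochondrial sums were 704.4 and 731.7 CPM, against 828.8 and 812.4 CPM with EV. Total-count scaling moved the median of all genes by 0.11 and left 10 cytosolic genes lower. Without TAF15-ZNF384 replicate 1 or without replicate 2, 8 members fell in place of 13, and all genes called numbered 404 and 536 in place of 1430. They numbered 549 and 686 without EV replicate 1 or 2, and 2783 and 2780 without ZNF384 replicate 1 or 2.

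With full-length ZNF384 the fall was smaller and reached fewer genes. Of the 20 cytosolic genes 9 fell and 0 rose, against 9.87% of all tested genes that fell and 10.8% that rose (20.6% either way), with a median log2 fold change of −0.25 against 0.03 for all genes. Of the 16 mitochondrial genes 3 fell and 2 rose, and the median was −0.08. The cytosolic sums were 4559 and 3922 CPM with ZNF384, against 4898 and 4634 CPM with EV, so the groups did not overlap but the ZNF384 libraries differed from each other. The mitochondrial sums of 947.1 and 791.6 CPM with ZNF384 lay on both sides of the 828.8 and 812.4 CPM with EV. The number of members lower was 5 without EV replicate 1, 6 without EV replicate 2, and 7 without either TAF15-ZNF384 library, which share in the estimate of spread. The number higher was 7 without ZNF384 replicate 2 and 0 without ZNF384 replicate 1, EV replicate 1 or EV replicate 2. The 3 comparisons share the EV libraries and are given side by side.

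**Figure D2:**
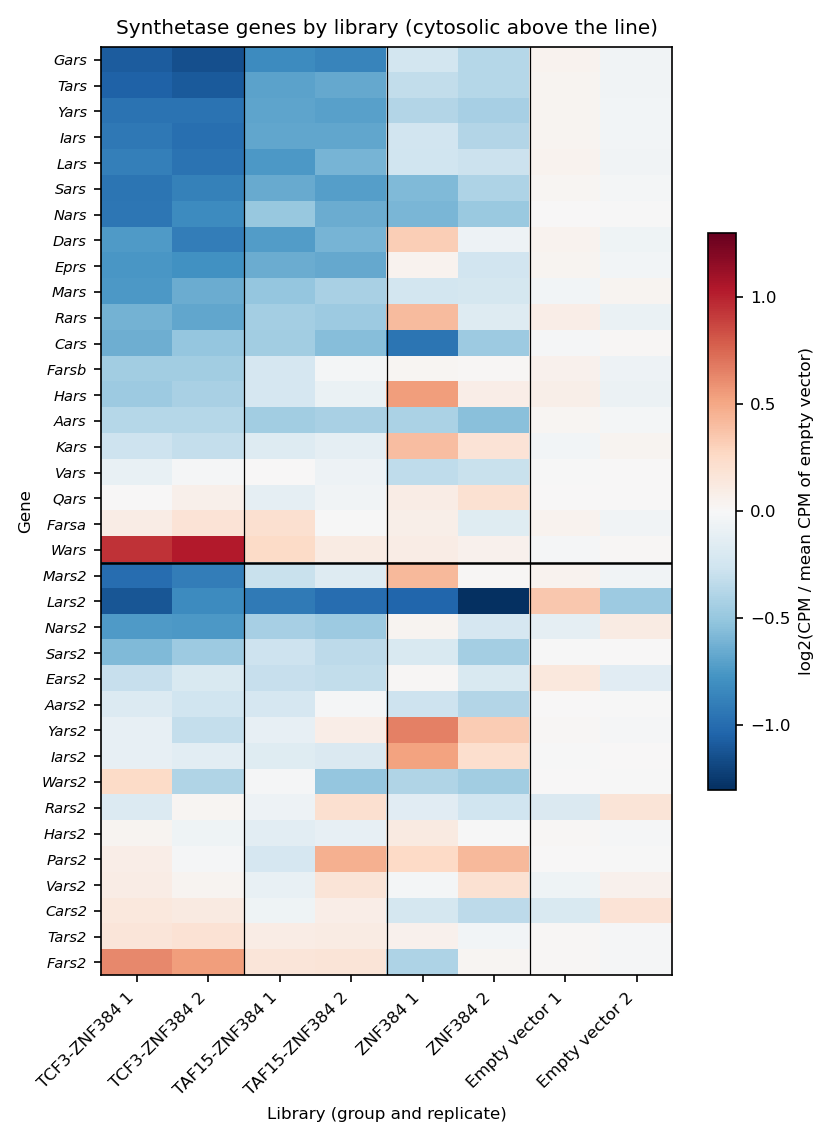
Synthetase genes (rows, cytosolic above the line and mitochondrial below) in the 8 libraries (columns), coloured by log2 of CPM over the mean CPM of the 2 EV libraries. Most cytosolic rows are blue in the 4 fusion libraries, Wars is red with TCF3-ZNF384, and Dars, Rars, Hars and Kars are red in ZNF384 replicate 1.

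**Figure D3:**
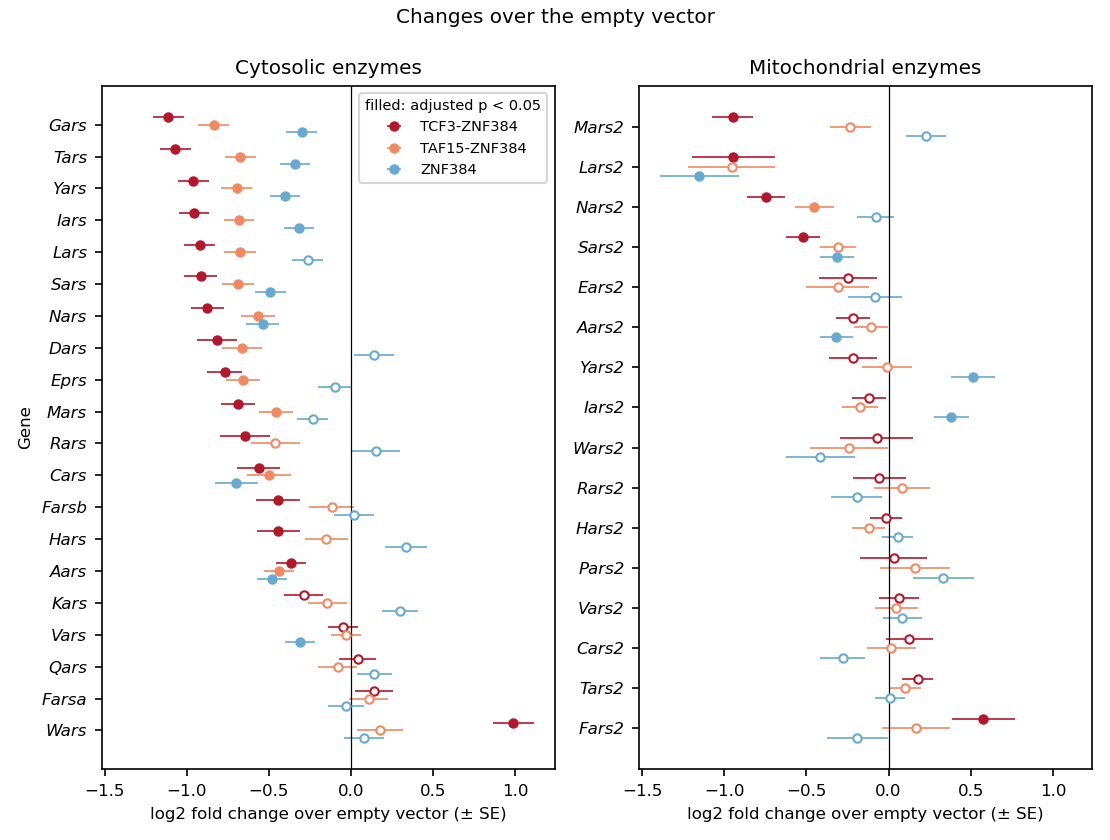
Log2 fold change over EV of each synthetase gene for TCF3-ZNF384, TAF15-ZNF384 and ZNF384, with bars of 1 SE, and filled points for an adjusted p under 0.05. Gars is at −1.11, −0.84 and −0.30, and Wars at 0.99, 0.18 and 0.08.

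In all, 8 members were lower than in EV with all 3 constructs, against 1.14% of all tested genes in 3 comparisons that share the EV libraries, and all 8 were cytosolic: Aars, Cars, Gars, Iars, Nars, Sars, Tars and Yars, which charge alanine, cysteine, glycine, isoleucine, asparagine, serine, threonine and tyrosine tRNA. Gars (chr6:54987995-55029498, mm9) had 404 and 386 CPM in the TCF3-ZNF384 libraries, 486 and 471 with TAF15-ZNF384, 725 and 661 with ZNF384, and 882 and 826 with EV. The 4 groups did not overlap, with the lowest values under TCF3-ZNF384. The log2 fold changes over EV were −1.11 ± 0.09 (SE) with TCF3-ZNF384 (adjusted p = 9.62e-07), −0.84 ± 0.09 with TAF15-ZNF384 (adjusted p = 8.23e-05) and −0.30 ± 0.09 with ZNF384 (adjusted p = 0.0345). Tars followed the same order, with 68.1 and 66.1 CPM with TCF3-ZNF384, 87.3 and 89.2 with TAF15-ZNF384, 113 and 109 with ZNF384, and 145 and 137 with EV. Its changes over EV were −1.07 ± 0.09 (adjusted p = 1.17e-06), −0.68 ± 0.09 (adjusted p = 0.000392) and −0.34 ± 0.09 (adjusted p = 0.016). Yars (49.5 and 49.6, 59.9 and 59, 74.1 and 71.6, and 99 and 93.7 CPM in that order of groups) and Iars (226 and 218, 269 and 269, 363 and 331, and 441 and 421 CPM) repeated it. Their changes were −0.96 ± 0.09, −0.70 ± 0.10 and −0.40 ± 0.09 for Yars, and −0.96 ± 0.09, −0.68 ± 0.09 and −0.32 ± 0.09 for Iars. The fusion calls of these 4 genes were kept under every alternative tried, and those with ZNF384 were not. Losses of single calls are given here and below for left-out libraries only, and other alternatives ended some calls too. Gars lost its call with ZNF384 without any 1 of the TCF3-ZNF384, TAF15-ZNF384 or EV libraries (−0.25 to −0.34), Iars without either TAF15-ZNF384 library or either EV library (−0.28 to −0.34), Tars without either EV library (−0.30 and −0.38) and Yars without EV replicate 1 (−0.36).

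Sars had 67.9 and 71.3 CPM with TCF3-ZNF384, 83.4 and 79.8 with TAF15-ZNF384, 87.9 and 99.3 with ZNF384, and 133 and 129 with EV, so the EV libraries stood apart from the other 6. Its changes over EV were −0.92 ± 0.10 (adjusted p = 9.52e-06), −0.69 ± 0.10 (adjusted p = 0.000552) and −0.49 ± 0.10 (adjusted p = 0.00283). Nars had 46.6 and 50.8 CPM, 63.7 and 57.2, 59.2 and 64, and 89.5 and 89.4 in the same order of groups. TAF15-ZNF384 and ZNF384 overlapped for Nars, with changes over EV of −0.57 ± 0.10 and −0.54 ± 0.10, while TCF3-ZNF384 was lower at −0.87 ± 0.10. For Aars and Cars no difference between constructs passed the test. Aars had 383 and 382 CPM with TCF3-ZNF384, 360 and 368 with TAF15-ZNF384, 370 and 338 with ZNF384, and 501 and 486 with EV, with changes of −0.37 ± 0.09, −0.44 ± 0.09 and −0.48 ± 0.09. Cars had 48.9 and 53.7, 55.5 and 51.9, 39.4 and 54.6, and 75.4 and 76.5 CPM, with changes of −0.56 ± 0.13, −0.50 ± 0.14 and −0.70 ± 0.13. For both genes the differences of the fusions from ZNF384 did not pass the test, at 0.11 ± 0.09 and 0.04 ± 0.09 for Aars and 0.14 ± 0.13 and 0.20 ± 0.14 for Cars. The fusion calls over EV were lost for Aars without either TCF3-ZNF384 library or EV replicate 1 (−0.35 to −0.37) and without any 1 TAF15-ZNF384 or EV library (−0.43 to −0.46). Those of Cars were lost without TCF3-ZNF384 replicate 1 (−0.49) and without any 1 TAF15-ZNF384 or EV library (−0.46 to −0.56), and that of Nars with TAF15-ZNF384 without its replicate 2 (−0.50).

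**Figure D4:**
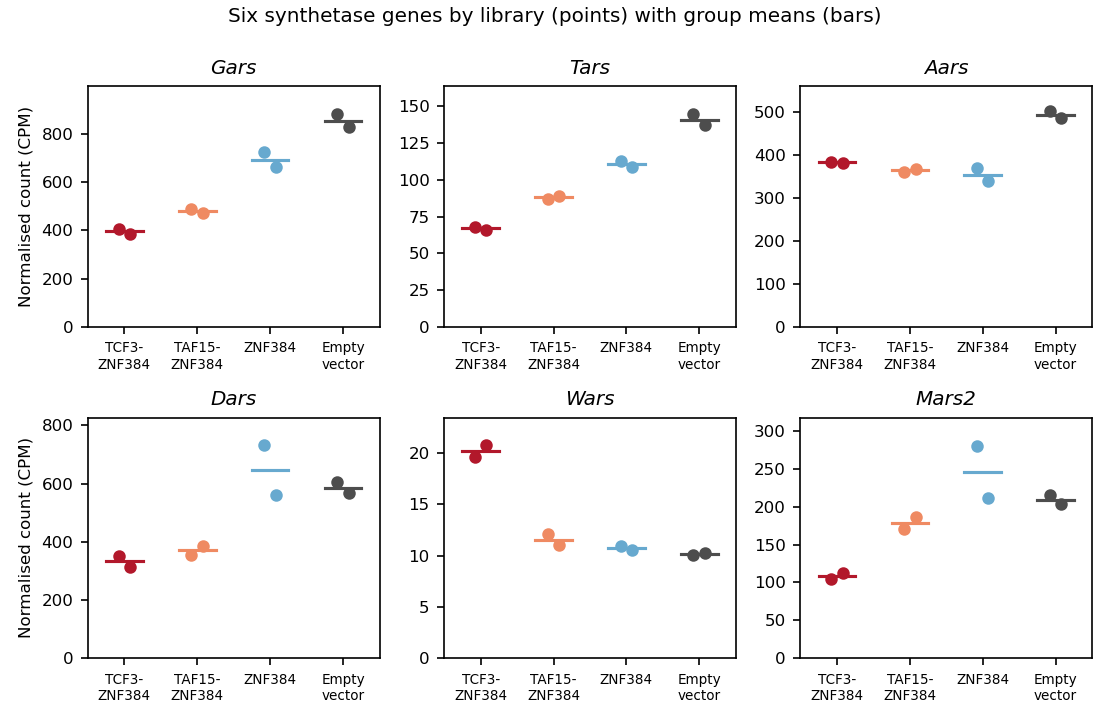
Normalised counts in CPM of Gars, Tars, Aars, Dars, Wars and Mars2, with a point per library, a bar at each group mean (n = 2) and axes from 0. Gars and Tars step down from EV through ZNF384 and TAF15-ZNF384 to TCF3-ZNF384, Aars lies between 338 and 383 CPM in the 6 construct libraries, Dars is low only in the fusion libraries, and Wars is high only with TCF3-ZNF384.

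A second set of cytosolic genes was lower with the fusions and not called with ZNF384. Dars (chr1:130260285-130313993, mm9) had 351 and 315 CPM with TCF3-ZNF384 and 354 and 387 CPM with TAF15-ZNF384, against 731 and 561 with ZNF384 and 607 and 566 with EV. The fusion libraries were below all ZNF384 and EV libraries, and ZNF384 overlapped EV. The changes over EV were −0.82 ± 0.12 with TCF3-ZNF384 (adjusted p = 0.00017) and −0.66 ± 0.12 with TAF15-ZNF384 (adjusted p = 0.00325), and 0.14 ± 0.12 with ZNF384. Eprs, with 462 and 455 CPM, 499 and 493, 805 and 659, and 804 and 761 in the order TCF3-ZNF384, TAF15-ZNF384, ZNF384 and EV, changed by −0.77 ± 0.10, −0.66 ± 0.10 and −0.10 ± 0.10. Lars, the leucyl gene, had 142 and 135, 156 and 173, 220 and 217, and 271 and 254 CPM and changed by −0.92 ± 0.10, −0.68 ± 0.10 and −0.26 ± 0.09, the last with an adjusted p of 0.0636. Mars, the methionyl gene, fell by 0.69 ± 0.10 with TCF3-ZNF384 and by 0.46 ± 0.10 with TAF15-ZNF384. With ZNF384 it stood at −0.23 ± 0.10 (adjusted p = 0.102). These ZNF384 estimates of Lars and Mars were near those of Gars (−0.30 ± 0.09) and Iars (−0.32 ± 0.09), which were called. Exons of Mars share 1.99% of their length with Ddit3 on the opposite strand. The Dars call with TAF15-ZNF384 was lost without its replicate 1 (−0.61), and that of Mars without any 1 TAF15-ZNF384 or EV library (−0.43 to −0.52).

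Rars, Hars and Kars had estimates below EV with the fusions and above it with ZNF384. Rars had 221 and 212 CPM with TCF3-ZNF384, 248 and 243 with TAF15-ZNF384, 449 and 301 with ZNF384, and 358 and 318 with EV. It fell with TCF3-ZNF384 (−0.64 ± 0.15, adjusted p = 0.00637), and stood at −0.46 ± 0.15 with TAF15-ZNF384 and 0.15 ± 0.15 with ZNF384. Hars, the histidyl gene, fell with TCF3-ZNF384 (−0.44 ± 0.13, adjusted p = 0.0181), and stood at −0.15 ± 0.13 and 0.33 ± 0.13. Kars had 19.4 and 18.8 CPM with TCF3-ZNF384, 20.8 and 21.5 with TAF15-ZNF384, 30.8 and 26.5 with ZNF384, and 22.8 and 23.9 with EV. Its ZNF384 libraries were above and its fusion libraries below EV, though none of the 3 differences from EV passed the test (−0.29 ± 0.12, −0.14 ± 0.12 and 0.30 ± 0.11). Against ZNF384 Kars fell with TCF3-ZNF384 (−0.59 ± 0.11, adjusted p = 0.000915) and with TAF15-ZNF384 (−0.44 ± 0.12, adjusted p = 0.0109). The call of Rars over EV was lost without TCF3-ZNF384 replicate 2 (−0.62), that of Hars without either TCF3-ZNF384 library or EV replicate 1 (−0.37 to −0.47), and that of Kars under TAF15-ZNF384 without either TAF15-ZNF384 library or ZNF384 replicate 1 (−0.31 to −0.48). Exons of Hars share 9.81% of their length with Hars2 on the opposite strand, and whether counting used strand is not given.

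Wars went the other way from its class. It had 19.6 and 20.8 CPM with TCF3-ZNF384, 12.1 and 11 with TAF15-ZNF384, 10.9 and 10.6 with ZNF384, and 10.1 and 10.3 with EV. Only the TCF3-ZNF384 libraries were high, and they overlapped no other group. Wars (chr12:110098240-110132384, mm9), which charges tryptophan tRNA and is known as an interferon-inducible gene, rose with TCF3-ZNF384 over EV (0.99 ± 0.13, adjusted p = 4.15e-05), over ZNF384 (0.91 ± 0.12, adjusted p = 4.95e-05) and over TAF15-ZNF384 (0.81 ± 0.14, adjusted p = 0.00167), and each call was kept under every alternative tried. The valyl gene Vars fell with ZNF384 over EV (−0.31 ± 0.09, adjusted p = 0.0281), at 146 ± 2.85 CPM with ZNF384 against 181 ± 0.88 CPM with EV. Farsb, the beta subunit of the phenylalanyl enzyme, fell with TCF3-ZNF384 (−0.45 ± 0.13, adjusted p = 0.0195), while Farsa, the alpha subunit, stood at 0.14 ± 0.11. The calls of Vars and Farsb were lost under several alternatives, Vars without any 1 TAF15-ZNF384 or EV library or TCF3-ZNF384 replicate 2 (−0.30 to −0.32) and Farsb without either TCF3-ZNF384 library or EV replicate 1 (−0.39 to −0.45). Qars and Farsa were the cytosolic genes called in none of the 6 comparisons.

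Among the mitochondrial genes Nars2 fell over EV with both fusions and Mars2 with TCF3-ZNF384. Mars2 (chr1:55294021-55296902, mm9) had 105 and 112 CPM with TCF3-ZNF384, 171 and 186 with TAF15-ZNF384, 280 and 211 with ZNF384, and 215 and 203 with EV. TCF3-ZNF384 was lowest and TAF15-ZNF384 next, without overlap, and ZNF384 overlapped EV. The change over EV was −0.95 ± 0.12 with TCF3-ZNF384 (adjusted p = 5.67e-05), and −0.23 ± 0.12 and 0.23 ± 0.12 with TAF15-ZNF384 and ZNF384, which did not pass the test. Nars2, the asparaginyl gene, had 35.1 and 34.9 CPM, 43.6 and 42.2, 60.3 and 50.5, and 54.2 and 63.1 in the order TCF3-ZNF384, TAF15-ZNF384, ZNF384 and EV, and changed by −0.74 ± 0.12, −0.45 ± 0.12 and −0.08 ± 0.11. Its exons share 6.74% of their length with an antisense gene. Sars2, the seryl gene, fell with TCF3-ZNF384 (−0.52 ± 0.11) and ZNF384 (−0.32 ± 0.10). The Nars2 call with TAF15-ZNF384 was lost without either TAF15-ZNF384 library (−0.49 and −0.44) or EV replicate 2 (−0.34), and the Sars2 call with ZNF384 without any 1 TCF3-ZNF384, TAF15-ZNF384 or EV library or ZNF384 replicate 2 (−0.22 to −0.33).

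Lars2, for the mitochondrial leucyl enzyme, had the lowest log2 fold change of its class with ZNF384 and the widest spread in EV. It had 16.2 and 19.8 CPM with TCF3-ZNF384, 18.5 and 17.6 with TAF15-ZNF384, 17.1 and 14.2 with ZNF384, against 44.7 and 25.2 with EV. Both EV libraries were above the other 6, but they differed from each other by more than the 6 did. The changes over EV were −0.95 ± 0.25 with TCF3-ZNF384 (adjusted p = 0.0209), −0.96 ± 0.26 with TAF15-ZNF384 (adjusted p = 0.054) and −1.15 ± 0.24 with ZNF384 (adjusted p = 0.0119). Without EV replicate 1 the change with TCF3-ZNF384 was −0.48 and that with ZNF384 −0.68. The TCF3-ZNF384 call was also lost without either TCF3-ZNF384 or either ZNF384 library (−0.82 to −1.11), and the ZNF384 call without either ZNF384 library (−1.31 and −1.05).

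Iars2 and Yars2, the isoleucyl and tyrosyl genes of the mitochondrion, were higher with ZNF384. Iars2 had 174 and 171 CPM with TCF3-ZNF384, 168 and 165 with TAF15-ZNF384, 270 and 219 with ZNF384, and 187 and 189 with EV. Yars2 had 13.3 and 11.6, 13.3 and 15.2, 22.6 and 18.1, and 14.5 and 14.2 CPM in that order. In both the ZNF384 libraries were above the other 6, and replicate 1 was the higher. Over EV they rose by 0.38 ± 0.11 (adjusted p = 0.0197) and 0.51 ± 0.13 (adjusted p = 0.0145). These calls were lost without ZNF384 replicate 1 (0.21 and 0.32), without either EV library (0.38 and 0.39 for Iars2, 0.53 and 0.50 for Yars2) and, for Iars2, without either TCF3-ZNF384 library (0.37). Of the exon length of Iars2 22.71% is shared with Rab3gap2 on the opposite strand. Fars2, the phenylalanyl gene, had 8.1 and 7.65 CPM with TCF3-ZNF384, 5.87 and 5.92 with TAF15-ZNF384, 3.99 and 5.37 with ZNF384, and 5.32 and 5.2 with EV, and rose with TCF3-ZNF384 over EV by 0.58 ± 0.19 (adjusted p = 0.0308), a call that was lost without any 1 TCF3-ZNF384 or EV library (0.54 to 0.62). Aars2 fell with ZNF384 over EV (−0.32 ± 0.10, adjusted p = 0.038), a call lost without any 1 library of the other 3 groups (−0.31 to −0.34). Cars2, the cysteinyl gene, was not called over EV with any construct. The other 7 mitochondrial genes, Ears2, Hars2, Pars2, Rars2, Tars2, Vars2 and Wars2, were called in none of the 6 comparisons.

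Set against full-length ZNF384, which shares the tag and the virus, each fusion again had lower levels of most cytosolic genes called. With TCF3-ZNF384 14 cytosolic and 4 mitochondrial genes fell and 2 of each rose, against 23.4% of all tested genes that fell and 22.2% that rose (45.6% either way). The median log2 fold change was −0.51 for the cytosolic genes, −0.05 for the mitochondrial genes (0.12 with total-count scaling) and 0.00 for all genes. With TAF15-ZNF384 10 cytosolic and 4 mitochondrial genes fell and 1 rose, against 17.9% of all tested genes that fell and 15.4% that rose (33.3% either way), with medians of −0.26, −0.01 (0.12 with total-count scaling) and −0.02. In total 14 of the 36 members were lower with both fusions than with ZNF384, against 14.5% of all tested genes, and 8 of them (Dars, Eprs, Hars, Kars, Lars, Rars, Mars2 and Nars2) were not called between ZNF384 and EV, against 8.42% of all tested genes. Of the 15 calls with TAF15-ZNF384 those of Dars, Eprs, Gars and Iars2 were kept under every alternative tried. The call of Lars was lost without TAF15-ZNF384 replicate 1 (−0.35), those of Hars and Mars2 without that library (−0.43 and −0.42) or ZNF384 replicate 1 (−0.22 for each), and that of Nars2 without any 1 fusion library or ZNF384 replicate 1 (−0.22 to −0.41). Those of Iars, Tars and Yars were lost without either TAF15-ZNF384 library (−0.29 to −0.38), and that of Yars also without either TCF3-ZNF384 library or ZNF384 replicate 1 (−0.25 to −0.28). The 2 comparisons share the ZNF384 libraries. Total-count scaling moved the median of all genes by 0.17 and 0.14, and left 15 members lower with TCF3-ZNF384 and 9 with TAF15-ZNF384, with 8 and 2 higher. With TAF15-ZNF384 4 members fell without its replicate 1, 8 without its replicate 2 and 9 without ZNF384 replicate 1.

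Of the members, Mars2 and Dars had the lowest log2 fold changes with TCF3-ZNF384 over ZNF384, and Dars with TAF15-ZNF384, where Mars2 was at −0.46 ± 0.12. With TCF3-ZNF384 Mars2 changed by −1.18 ± 0.12 (adjusted p = 5.7e-06), Dars by −0.96 ± 0.12 (adjusted p = 2.99e-05), Gars by −0.81 ± 0.09 (adjusted p = 1.3e-05) and Rars by −0.79 ± 0.15 (adjusted p = 0.00117). With TAF15-ZNF384 Dars changed by −0.80 ± 0.12 (adjusted p = 0.000268), Rars by −0.61 ± 0.15 (adjusted p = 0.00915), Eprs by −0.56 ± 0.10 (adjusted p = 0.00116) and Gars by −0.54 ± 0.09 (adjusted p = 0.000773). Iars2 fell by 0.56 ± 0.11 and Yars2 by 0.52 ± 0.15 with TAF15-ZNF384, and neither passed the test between TAF15-ZNF384 and EV. Besides Wars, Fars2 (0.77 ± 0.19, adjusted p = 0.00464) and Cars2 (0.41 ± 0.14, adjusted p = 0.0326) rose with TCF3-ZNF384, and Vars rose with TCF3-ZNF384 (0.26 ± 0.09) and TAF15-ZNF384 (0.28 ± 0.09), in which ZNF384 was the low group. The call of Rars with TAF15-ZNF384 was lost without either of its libraries (−0.64 and −0.61), and that of Yars2 without TAF15-ZNF384 replicate 1 (−0.44) or ZNF384 replicate 1 (−0.33). That of Fars2 was lost without ZNF384 replicate 1 (0.56), of Cars2 without either TCF3-ZNF384 library or ZNF384 replicate 2 (0.37 to 0.43), and of Vars with either fusion without any 1 fusion or EV library (0.23 to 0.32).

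**Figure D5:**
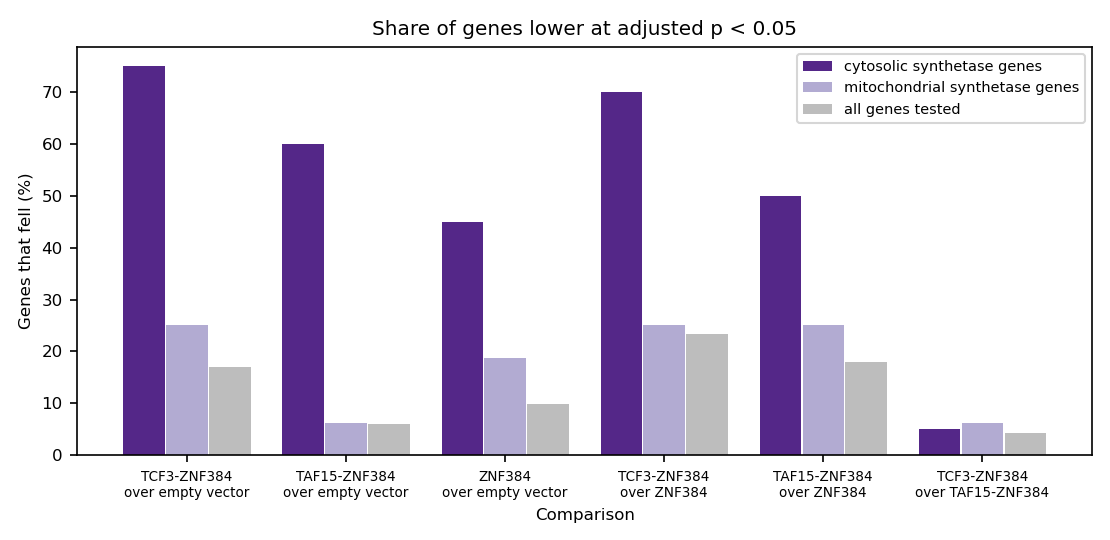
Percent of cytosolic synthetase genes (of 20), mitochondrial synthetase genes (of 16) and all 12970 tested genes that were lower at an adjusted p under 0.05 in each of the 6 comparisons, on an axis from 0. The cytosolic bars are at 75, 60, 45, 70, 50 and 5%, and the bars of all genes are between 4.17 and 23.4%.

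Between the fusions few members differed by the test. With TCF3-ZNF384 over TAF15-ZNF384 Wars rose and Tars and Mars2 fell, against 4.17% of all tested genes that fell and 5.91% that rose (10.1% either way). Mars2 was lower by 0.72 ± 0.13 on the log2 scale (108 ± 5.13 CPM against 178 ± 10.5 CPM, adjusted p = 0.00221) and Tars by 0.40 ± 0.10 (67.1 ± 1.41 CPM against 88.2 ± 1.32 CPM, adjusted p = 0.0165). The median of the cytosolic genes was −0.21 and that of all genes 0.00, with 1 cytosolic gene of 20 called in each direction. Gars stood at −0.28 ± 0.09 (adjusted p = 0.081) and Iars at −0.27 ± 0.09 (adjusted p = 0.0808). The count of members lower was 10 without either ZNF384 library, 1 without either TCF3-ZNF384 library or TAF15-ZNF384 replicate 1, and 0 without TAF15-ZNF384 replicate 2, where Mars2 was at −0.65. Tars lost its call without any 1 of the 4 fusion libraries (−0.38 to −0.41).

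Sorted by role, most of the 8 enzymes of the multisynthetase complex (Dars, Eprs, Iars, Kars, Lars, Mars, Qars and Rars) were lower with the fusions, both over EV and over ZNF384. Over EV 6 of the 8 fell with TCF3-ZNF384 and 5 with TAF15-ZNF384, and 1 with ZNF384, with medians of −0.73, −0.56 and 0.02, against 17.0, 6.01 and 9.87% of all tested genes that fell. Over ZNF384 7 of the 8 fell with TCF3-ZNF384 and 6 with TAF15-ZNF384, against 23.4 and 17.9% of all tested genes. The 12 cytosolic genes outside the complex gave 9, 7 and 8 that fell over EV, with medians of −0.50, −0.47 and −0.33. The difference between the sets was not tested. The count of complex genes with ZNF384 was 0 to 3 when 1 library was left out, and 3 complex genes rose without ZNF384 replicate 2. The count with TAF15-ZNF384 over ZNF384 was 2 without its replicate 1 and 3 without its replicate 2, and that over EV was 3 without its replicate 1. Outside the complex the counts were 5 with TCF3-ZNF384 without its replicate 1, 4 with TAF15-ZNF384 without its replicate 2, and 4 and 5 with ZNF384 without EV replicate 1 and 2.

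Of the 20 cytosolic genes 13 are widely reported as ATF4 targets (Aars, Cars, Eprs, Gars, Iars, Lars, Mars, Nars, Sars, Tars, Vars, Wars and Yars). Over EV 11 of these fell with TCF3-ZNF384, 11 with TAF15-ZNF384 and 9 with ZNF384, with medians of −0.88, −0.66 and −0.32. Of all tested genes 17.0, 6.01 and 9.87% fell in these comparisons, and the counts over EV below stand against the same shares. Of the 7 other cytosolic genes 4, 1 and 0 fell, with medians of −0.44, −0.15 and 0.14. Over ZNF384 the order was reversed, with medians of −0.45 and −0.23 for the 13 genes and −0.59 and −0.44 for the 7. The 5 genes with TGATGNAA in the promoters printed above fell in each of the 3 comparisons with EV, with medians of −0.96, −0.68 and −0.34. The 7 other cytosolic genes with a window gave 4, 3 and 1 that fell (Sars in all 3), with medians of −0.45, −0.15 and 0.02. Cars and Nars, which fell with all 3 constructs, have no window. All 5 genes with a match are among the 13, and of the 7 without a match only Eprs and Sars are. The split by promoter thus largely repeats the split by ATF4 list. The differences between these sets were not tested, and the promoter search was made after the changes were seen. With 1 library left out the count of the 13 was at least 9 with TCF3-ZNF384, 7 with TAF15-ZNF384 without its replicate 2, and 4 and 5 with ZNF384 without EV replicate 1 and 2. The count of the 7 with TCF3-ZNF384 was 1 without its replicate 2 and 2 without its replicate 1 or EV replicate 1, and 4 of the 7 rose with ZNF384 without ZNF384 replicate 2. The 1 gene with TAF15-ZNF384 became 0 without its replicate 1 and 2 without either ZNF384 library. By catalytic class, 8 of 18 class I enzymes (median −0.23) and 10 of 17 class II enzymes (median −0.44) fell with TCF3-ZNF384 over EV, leaving out Eprs, which joins an enzyme of each class. The order of these medians was reversed with TAF15-ZNF384 over EV (5 of 18, −0.24, and 7 of 17, −0.15). It was also reversed with ZNF384 over EV (5 of 18, −0.21, and 7 of 17, −0.08). Both classes hold cytosolic and mitochondrial genes, and the difference between them was not tested.

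Genes of the same pathway outside the family moved in part with the cytosolic enzymes. Over EV 17.0, 6.01 and 9.87% of all tested genes fell with TCF3-ZNF384, TAF15-ZNF384 and ZNF384. The 3 scaffold genes of the multisynthetase complex fell with TCF3-ZNF384 over EV, Eef1e1 by 0.86 ± 0.16 (39.5 ± 1.07 against 71.7 ± 3.07 CPM), Aimp1 by 0.46 ± 0.10 and Aimp2 by 0.59 ± 0.22. With TAF15-ZNF384 only Eef1e1 fell (−0.57 ± 0.16, adjusted p = 0.0451), and with ZNF384 none passed the test, with a median of 0.29. Over ZNF384 Eef1e1 was lower with both fusions, at −1.17 ± 0.16 and −0.89 ± 0.16. Of 11 tested genes of tRNA charging, editing and export the tRNA exporter gene Xpot fell with TCF3-ZNF384 (−0.72 ± 0.11, 331 ± 1.87 against 547 ± 46.6 CPM) and TAF15-ZNF384 (−0.63 ± 0.11), as did Qrsl1, a subunit of the mitochondrial glutaminyl-tRNA amidotransferase (−0.95 ± 0.14 and −0.67 ± 0.14), and Dtd1, which removes D-amino acids from tRNA, with TCF3-ZNF384 (−0.53 ± 0.11). With ZNF384 none fell, and Tarsl2 (0.64 ± 0.16) and Aarsd1 (0.81 ± 0.21) rose. Aimp2 lost its call with TCF3-ZNF384 over EV without any 1 TCF3-ZNF384, TAF15-ZNF384 or EV library (−0.46 to −0.77), and Eef1e1 with TAF15-ZNF384 without any 1 TCF3-ZNF384, TAF15-ZNF384 or EV library (−0.53 to −0.62). Xpot with TAF15-ZNF384 lost it without replicate 1 (−0.64), Qrsl1 without either TAF15-ZNF384 library or EV replicate 2 (−0.57 to −0.77), and Tarsl2 and Aarsd1 without ZNF384 replicate 1 or either EV library (0.42 to 0.68 and 0.69 to 0.87).

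The genes of the integrated stress response and amino acid supply were lower over EV with every construct. Of 27 tested genes 21 fell with TCF3-ZNF384, 19 with TAF15-ZNF384 and 20 with ZNF384, none rose, and the medians were −1.28, −0.78 and −0.81. The shares of all tested genes that fell were 17.0, 6.01 and 9.87%. Trib3, an ATF4 target that feeds back on it, was at 28.9 ± 2.57, 44.7 ± 0.118, 42.1 ± 8.97 and 158 ± 5.68 CPM with TCF3-ZNF384, TAF15-ZNF384, ZNF384 and EV. The asparagine synthetase gene Asns was at 72.4 ± 4.19, 107 ± 0.712, 155 ± 16.9 and 226 ± 9.15 CPM, in the order seen for Gars and Tars. Atf4 itself was at 34.9, 42.9, 24.5 and 41.6 CPM on average, and fell with ZNF384 over EV (−0.78 ± 0.17, adjusted p = 0.00784), a call lost without ZNF384 replicate 1 (−0.61) or EV replicate 2 (−0.59). With TCF3-ZNF384 and TAF15-ZNF384 over EV it was not called (−0.24 ± 0.17, adjusted p = 0.306, and 0.04 ± 0.17, adjusted p = 0.909). Over ZNF384 Atf4 rose with TCF3-ZNF384 (0.53) and TAF15-ZNF384 (0.82). Both of these calls were lost without ZNF384 replicate 1 (0.37 and 0.65). The first was also lost without TCF3-ZNF384 replicate 2 (0.35), and the second without TAF15-ZNF384 replicate 1 (0.61). Ddit3, a stress-induced factor, stood far lower with ZNF384 (11.1 ± 2.78 CPM) than with the fusions (41.6 ± 3.7 and 58.8 ± 1.66 CPM) or EV (73.2 ± 9.48 CPM). Of all tested genes 23.4% fell and 22.2% rose with TCF3-ZNF384 over ZNF384, and 17.9% fell and 15.4% rose with TAF15-ZNF384. With TCF3-ZNF384 over TAF15-ZNF384 4.17% fell and 5.91% rose. Over ZNF384 genes of the list, like all tested genes, moved both ways. The serine synthesis genes Phgdh (−1.26 ± 0.11 and −0.83 ± 0.11) and Psat1 (−0.97 ± 0.10 and −0.70 ± 0.10) and the proline synthesis gene Pycr1 (−1.49 ± 0.14 and −0.88 ± 0.14) fell with TCF3-ZNF384 and TAF15-ZNF384, while the stress-induced Ddit3 (1.93 ± 0.16 and 2.42 ± 0.16), Atf3 (1.68 ± 0.29 and 2.50 ± 0.29) and Sesn2 (0.88 ± 0.18 and 0.93 ± 0.19) rose. Other stress-induced genes did not follow these, since Chac1 (−1.44 ± 0.25) and Trib3 (−0.53 ± 0.13) fell with TCF3-ZNF384 and stood at −0.20 ± 0.24 and 0.09 ± 0.13 with TAF15-ZNF384, and the serine synthesis gene Psph stood at 0.05 ± 0.23 and 0.17 ± 0.24. Trib3 lost that call without TCF3-ZNF384 replicate 1 (−0.43). In all, 14 fell and 5 rose with TCF3-ZNF384, and 7 fell and 7 rose with TAF15-ZNF384, with 3 that rose with TCF3-ZNF384 without its replicate 2 or ZNF384 replicate 1, and 4 with TAF15-ZNF384 without its replicate 1 or ZNF384 replicate 1. Between the fusions 9 fell with TCF3-ZNF384 and none rose, with a median of −0.44, and the 9 became 3 to 5 without any 1 fusion library and 14 without either ZNF384 library.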

How the data were processed

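The deposited values are the authors' raw read counts per gene. The submitters' processing notes name HTSeq 0.6.1p1 and the mm9 build. The aligner, annotation release and strand setting are not given in the sources used here. Gene positions are from the mm9 GENCODE annotation and promoters from RefSeq (GRCm38.p6). In R 4.3.3, edgeR 4.0.16 (TMM scaling, filterByExpr by group, robust quasi-likelihood F test, 2-sided) was fitted to all 8 libraries with 4 residual degrees of freedom, and p-values were adjusted by Benjamini-Hochberg over the 12970 genes tested. A standard error is the absolute log2 fold change over the square root of F. The fit was also run on simulated data, with the same spread for every gene and larger changes than many reported here. That run does not measure accuracy for these data. Of the called members, the 8 cytosolic and 4 mitochondrial genes with the largest change over EV were named (4 and 2 in the other comparisons), with Gars and Kars always. Others were named after their values were seen. The members and lists were chosen with earlier results of these data known. Alternatives were other scalings, filters, tools (DESeq2 1.42.0, limma 3.58.1 with voom) and sample sets, a replicate block, leaving out each library, and, chosen after seeing the data, thinning to 6745156 counts outside 5 non-coding genes. With 2 libraries a group, p-values measure only the spread between these libraries.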

Additional observations from a re-analysis of the deposited data

How the results depend on the processing

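Of 88 calls of members over the 6 comparisons, 46 held under all 17 alternatives and 0 changed direction. Apart from the fits that left out 1 library, 62 held under all alternatives. With total-count scaling 8 members rose with TCF3-ZNF384 over ZNF384 (4 in the reported fit), and with TAF15-ZNF384 over ZNF384 2 rose (1) and 9 fell (14). With DESeq2's Wald test 1 rose with TCF3-ZNF384 over EV (2) and 4 fell with TCF3-ZNF384 over TAF15-ZNF384 (2). With no filter on low counts 0 rose with TAF15-ZNF384 over ZNF384 (1). With only the groups compared, 1 rose (2) and 6 fell (12) with ZNF384 over EV, 0 rose with TAF15-ZNF384 over ZNF384 (1), 11 fell with TCF3-ZNF384 over TAF15-ZNF384 (2), and all genes called were 2746 (1430) for TAF15-ZNF384 over EV and 2548 (1308) for TCF3-ZNF384 over TAF15-ZNF384. The cause of these changes was not tested.

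With 1 library left out, over TCF3-ZNF384, TAF15-ZNF384 and ZNF384 over EV, then TCF3-ZNF384 and TAF15-ZNF384 over ZNF384, then TCF3-ZNF384 over TAF15-ZNF384, members that rose numbered 1 to 2, 0 to 0, 0 to 7, 2 to 4, 0 to 3 and 1 to 1. Members that fell numbered 14 to 20, 8 to 16, 5 to 13, 15 to 19, 4 to 14 and 0 to 10. All genes called numbered 2501 to 5372, 404 to 2783, 1064 to 3814, 3866 to 6558, 2158 to 5333 and 371 to 2361. A group left with 1 library was taken to vary like the others.

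The labels do not say whether replicate numbers pair libraries. Correlations of replicate differences between groups ran from 0.014 to 0.22, and such values cannot decide it. With the replicate block 19, 15, 12, 18, 14 and 2 members fell in that order of comparisons and 0 calls of members ended. All genes called with it numbered 4655 for TCF3-ZNF384 over EV (4317 without it) and 1825 for TAF15-ZNF384 over EV (1430). Genes of low count, such as Wars2, and 2 libraries a group limit the precision.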
